A study of Mus musculus with 12 samples.

Results

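The polyamine genes described here are Odc1, Amd1, Srm, Sms, Sat1, Smox, Paox, Oaz1, Oaz2 and Azin1, taken by gene name from the deposited expression table, 10 of its 54532 genes. They were measured by RNA-seq of poly(A) RNA from the livers of C57/BL6J mice of wild-type genotype, in 12 libraries. There were 3 libraries from sham-operated animals, and 3 each from animals whose liver had been resected by 70% and sampled 3, 6 or 12 h later. Age and sex are not given in the labels, and neither is the hour at which sham livers were sampled. A 6 h library, replicate 3, has 7 h as its time tag and was kept in the group of its title. The labels do not say whether each library stands for a different animal, so p-values may reflect only the spread between these samples. In whole tissue, fewer cells of a type and less RNA per cell cannot be told apart.

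Polyamines are small positively charged molecules that bind nucleic acids and ribosomes and are needed for growth and division. Ornithine decarboxylase makes putrescine from ornithine, and spermidine and spermine are built from it with aminopropyl groups that come from decarboxylated S-adenosylmethionine. A back-conversion route acetylates and oxidises the larger polyamines. Antizymes bind ornithine decarboxylase and send it to the proteasome, and an antizyme inhibitor competes with it for binding. In regenerating rodent liver, induction of ornithine decarboxylase activity is a classical early response to partial hepatectomy.

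Levels are given as FPKM (fragments scaled by the deposited gene length and by library size), in the order of replicates 1, 2 and 3. Differences are log2 differences between groups from the edgeR quasi-likelihood test with their standard error (SE), and calls were made below an adjusted p of 0.05 over the 11451 genes tested. A gene was tested if it had at least 1 FPKM in 3 or more libraries. Of the 10 genes 8 passed: Sms reached 1 FPKM in 0 of 12 libraries and Smox in 1. Library totals were 15573405 to 17199639 counts. The effective sizes behind the FPKM lay farther apart, from 13579965 in 6 h replicate 3 to 19230702 in sham replicate 3. They were smaller in every 3 h and 6 h library than in any sham library. FPKM at 3 h and 6 h are thus higher, relative to sham, than counts over library totals would be. Sham replicate 1 stood apart from its group: mitochondrially encoded genes held 11.9% of its counts, against 5.52% and 6.26% in the other sham libraries and 5.94% to 8.49% in resected livers. Differences of the tested polyamine genes from sham that rest on it are given with and without it. Values of genes around the pathway and of cell type markers are given only with it, so their dependence on it was not tested.

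The antizyme transcripts carry their regulation in their coding sequence, and it is shown here because Oaz1 and Oaz2 are among the genes that moved. A stop codon interrupts the reading frame, and ribosomes pass it by skipping a base, which happens more often when polyamines are abundant. The windows below come from GENCODE M21 transcripts (GRCm38). Capitals mark, in Oaz1-205 and Oaz2-203, the last sense codon, the stop codon and the next base. In Oaz1-207 and Oaz2-206, annotated as translated across the site, they mark the same stretch without the skipped base.
Oaz1-205: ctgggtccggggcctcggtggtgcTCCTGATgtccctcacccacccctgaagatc
Oaz1-207: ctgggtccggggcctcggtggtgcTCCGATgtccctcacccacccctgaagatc
Oaz2-203: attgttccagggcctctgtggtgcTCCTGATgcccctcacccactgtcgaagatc
Oaz2-206: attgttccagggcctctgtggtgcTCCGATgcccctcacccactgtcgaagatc
The skipped base lies at chr10:80828295 in Oaz1 and at chr9:65686272 in Oaz2, both on the plus strand. The windows of Oaz1-205 and Oaz2-203 are identical at 45 of 55 bases, and the capital stretch is the same in both. Read counts per gene do not tell whether ribosomes passed the site.

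The sequences before the start of Odc1, Amd1 and Sat1 are shown because these genes rose after resection. They come from RefSeq (GRCm38.p6) windows of 250 bases, which matched 8 of the 10 genes with 10 windows, without Srm and Azin1. The bases printed are those outside the gene as GENCODE M21 draws it. Capitals mark matches, on either strand, to GGGCGG (GC box) or TGACG (part of a cyclic AMP response element), and no matches overlap in the printed stretches.
Odc1, chr12:17544623-17544793, plus strand: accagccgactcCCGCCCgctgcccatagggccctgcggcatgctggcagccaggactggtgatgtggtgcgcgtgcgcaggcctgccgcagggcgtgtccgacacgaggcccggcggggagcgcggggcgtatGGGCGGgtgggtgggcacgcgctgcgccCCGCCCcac
Amd1, chr10:40302189-40302438, minus strand: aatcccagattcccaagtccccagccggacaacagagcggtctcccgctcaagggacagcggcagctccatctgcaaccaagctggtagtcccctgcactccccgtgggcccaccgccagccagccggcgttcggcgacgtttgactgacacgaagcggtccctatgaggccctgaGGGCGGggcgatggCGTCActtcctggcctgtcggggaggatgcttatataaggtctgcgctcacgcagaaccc
Sat1, chrX:155216450-155216699, minus strand: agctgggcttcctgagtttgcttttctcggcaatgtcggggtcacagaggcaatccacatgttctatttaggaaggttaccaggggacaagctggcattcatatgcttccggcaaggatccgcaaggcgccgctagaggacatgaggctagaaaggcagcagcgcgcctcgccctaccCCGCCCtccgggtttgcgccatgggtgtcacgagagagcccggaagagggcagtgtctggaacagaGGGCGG
GGGCGG was found in 8 of the 10 windows of polyamine genes and in 32.7% of all 32851 windows of this length. Both Paox windows, which start at chr7:140125407 and chr7:140125435 and share most of their bases, are among the 8. TGACG was found in 3 of 10 windows and in 17.8% of all. The Odc1 window holds a TGACG at -79 and a GC box at -15 from its RefSeq start, both past the printed stretch. The E-box CACGTG was found in 1 of 10 windows, before Sms, and in 6.02% of all, CCAAT in 2 of 10 and 33.8%, and TATAAA in 0 of 10 and 12.4%. The full window was 80% G or C for Odc1, 64.4% for Amd1 and 59.6% for Sat1, against a median of 52.4% over all windows. A match is a description of the letters and no evidence of binding.

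Among the 10 genes Oaz1 had the highest mean level in sham, 3 h and 6 h livers, at 84.7, 98.6 and 70.0 FPKM, while at 12 h Odc1 led with 44.2 FPKM and Oaz1 had 37.7 FPKM. In sham livers Odc1, Sat1 and Azin1 followed with means of 17.1, 16.5 and 12.6 FPKM, and their ranges over libraries overlapped. Paox, Oaz2, Srm and Amd1 lay between 6.78 and 9.04 FPKM, also with overlapping ranges except for Paox and Amd1. Smox and Sms were lowest in every group, with means between 0.487 and 0.936 FPKM. At 12 h the ranges of Odc1 and Oaz1 overlapped slightly, and those of Srm and Sat1 overlapped around means of 18.2 and 17.3 FPKM. Across the 4 groups 7 of the 8 tested genes differed by the edgeR F-test, where 50% of all tested genes did. Azin1 was the exception (adjusted p = 0.384). With each library left out in turn, 6 to 8 of the 8 genes differed, so Azin1 differed too in some of these fits. Of all 11451 tested genes 4710 to 7430 then differed.

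**Figure D1:**
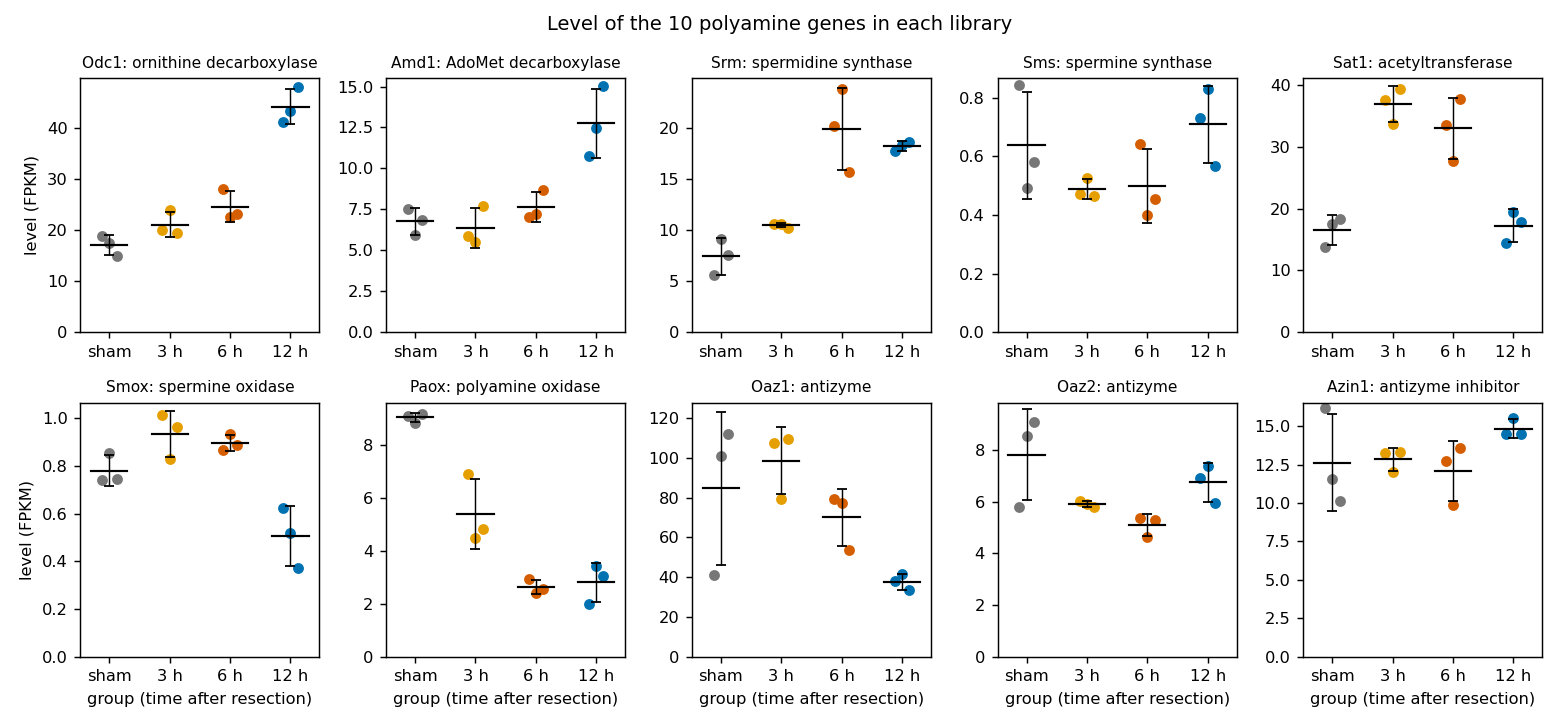
Level of each polyamine gene in FPKM (vertical axis, linear from 0, its own scale per panel) in sham, 3 h, 6 h and 12 h livers (horizontal axis). Points are libraries, the horizontal line is the mean and the bar is 1 SD (n = 3 libraries per group). Odc1 and Amd1 are highest at 12 h, Srm at 6 h and 12 h and Sat1 at 3 h and 6 h, while Paox is highest in sham livers.

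Of the genes that make polyamines, Odc1, Amd1 and Srm rose after resection. Odc1 (ENSMUSG00000011179, chr12:17544794-17551505) encodes ornithine decarboxylase, the enzyme that makes putrescine and a rate-limiting step of the route. It had 18.9, 17.4 and 14.9 FPKM in sham livers, 19.9, 24.0 and 19.4 at 3 h, 28.1, 22.5 and 23.2 at 6 h, and 41.2, 43.4 and 48.1 at 12 h. In FPKM all 3 libraries of each resected group lay above all sham libraries, and the 12 h libraries lay above every other library. In unscaled counts the 3 h libraries (947 to 1240) and 6 h libraries (1075 to 1364) overlapped sham (978 to 1104). Their separation from sham thus depends on the scaling, and that of the 12 h libraries (2596 to 2925 counts) does not. The log2 difference from sham was 0.27 ± 0.14 at 3 h (SE, edgeR adjusted p = 0.221), 0.50 ± 0.14 at 6 h (adjusted p = 0.0158) and 1.36 ± 0.15 at 12 h (adjusted p = 3.29e-05). Odc1 was thus called at 6 h and 12 h and was 2.57-fold higher at 12 h. The 6 h call was lost with only the 6 libraries compared (0.49, adjusted p = 0.0654), when scaled by library totals (0.20, adjusted p = 0.299), without 6 h replicate 1 (0.40, adjusted p = 0.0754) and without sham replicate 3 (0.42, adjusted p = 0.0673). Over its 15 alternatives the adjusted p ran from 0.00492 to 0.299. Most of the rise fell between 6 h and 12 h, with a log2 difference of 0.86 ± 0.15 (adjusted p = 0.000946), while 6 h against 3 h was 0.24 ± 0.14 (adjusted p = 0.355).

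Amd1 (ENSMUSG00000075232, chr10:40287458-40302186) encodes S-adenosylmethionine decarboxylase, which supplies the aminopropyl groups. It had 7.54, 5.92 and 6.87 FPKM in sham livers, 5.87, 5.49 and 7.73 at 3 h, 7.02, 7.22 and 8.71 at 6 h, and 10.8, 12.5 and 15.0 at 12 h. The 3 h and 6 h libraries overlapped the sham range, and the 12 h libraries lay above all others. The log2 difference from sham was 0.90 ± 0.17 at 12 h (adjusted p = 0.00163), a 1.87-fold rise, against -0.13 ± 0.17 at 3 h (adjusted p = 0.62) and 0.15 ± 0.17 at 6 h (adjusted p = 0.539). Between 12 h and 6 h the log2 difference was 0.75 ± 0.17 (adjusted p = 0.00573), so both decarboxylases rose in that interval. The close copy Amd2 (0.134 to 0.644 FPKM) and the pseudogenes named after Amd were low, and reads shared with them could not be separated here.

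Srm (ENSMUSG00000006442, chr4:148591503-148594993) encodes spermidine synthase, which joins an aminopropyl group to putrescine. It had 5.56, 9.15 and 7.58 FPKM in sham livers, 10.6, 10.6 and 10.2 at 3 h, 20.2, 23.7 and 15.7 at 6 h, and 17.7, 18.3 and 18.6 at 12 h. In FPKM every resected library lay above every sham library, and the 6 h and 12 h groups overlapped each other. In unscaled counts the 3 h libraries (235 to 275) overlapped sham (151 to 272), so the separation at 3 h depends on the scaling. The log2 difference from sham was 1.39 ± 0.19 at 6 h (adjusted p = 8.72e-05) and 1.28 ± 0.19 at 12 h (adjusted p = 0.000321), or 2.62-fold and 2.43-fold higher. At 3 h it was 0.45 ± 0.19 (adjusted p = 0.106), which passed without sham replicate 2 (0.63, adjusted p = 0.0426, the lowest over its alternatives, with 0.374 the highest). Srm rose between 3 h and 6 h by a log2 difference of 0.94 ± 0.19 (adjusted p = 0.00846), and 12 h against 6 h was -0.11 ± 0.18 (adjusted p = 0.702).

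Sms (ENSMUSG00000071708, chrX:157443855-157492287), the spermine synthase that adds the next aminopropyl group, was too low to test. It lay between 0.400 and 0.842 FPKM over the 12 libraries, on 37 to 91 counts each, and means were 0.638 FPKM in sham, 0.487 at 3 h, 0.499 at 6 h and 0.709 at 12 h. The groups overlapped at each time. A pseudogene, Sms-ps, was listed at 0.535 to 2.09 FPKM, so the division of reads between the gene and its copy is uncertain.

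Of the back-conversion genes, Sat1 rose and Paox fell against sham at 3 h and 6 h, and Smox was too low to test. Sat1 (ENSMUSG00000025283, chrX:155213132-155216449) encodes spermidine/spermine N1-acetyltransferase, which starts polyamine breakdown and export. It had 13.7, 17.5 and 18.3 FPKM in sham livers, 37.6, 33.8 and 39.4 at 3 h, 33.5, 27.8 and 37.7 at 6 h, and 14.4, 19.5 and 17.9 at 12 h. The 3 h and 6 h libraries lay above all sham and all 12 h libraries, and the 12 h libraries overlapped sham. The log2 difference from sham was 1.12 ± 0.16 at 3 h (adjusted p = 0.000373) and 0.97 ± 0.16 at 6 h (adjusted p = 0.000506), while at 12 h it was 0.053 ± 0.16 (adjusted p = 0.842). The 95% interval of the 12 h difference ran from -0.30 to 0.40. Sat1 fell between 6 h and 12 h by 0.92 ± 0.16 on the log2 scale (adjusted p = 0.00139), the interval in which Odc1 and Amd1 rose.

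Paox (ENSMUSG00000025464, chr7:140115799-140137224) encodes the peroxisomal oxidase that cleaves the acetylated polyamines made by Sat1. It had 9.11, 8.84 and 9.18 FPKM in sham livers, 6.89, 4.48 and 4.81 at 3 h, 2.95, 2.41 and 2.57 at 6 h, and 2.0, 3.41 and 3.04 at 12 h. Every resected library lay below every sham library, and the 6 h and 12 h libraries lay below those at 3 h. The log2 difference from sham was -0.78 ± 0.20 at 3 h (adjusted p = 0.0136), -1.80 ± 0.21 at 6 h (adjusted p = 2.58e-05) and -1.69 ± 0.21 at 12 h (adjusted p = 8.66e-05). The level at 6 h was 0.286 times that of sham. The 3 h call was lost without 3 h replicate 2 (-0.67, adjusted p = 0.0647) or 3 h replicate 3 (-0.70, adjusted p = 0.0624), and its adjusted p ran from 0.00242 to 0.0647 over the alternatives. Between 6 h and 3 h Paox fell further, with a log2 difference of -1.02 ± 0.21 (adjusted p = 0.00957). That call was lost without 6 h replicate 2 (-0.96, adjusted p = 0.0553, the highest over the alternatives, with 1.81e-05 the lowest). The start of Paox overlaps, over 678 bases, Echs1 on the opposite strand, and the strand used in counting is not given in the sources used here. Echs1, an enzyme of fatty acid oxidation named here for this overlap alone, had log2 differences from sham of -0.11 ± 0.12 at 3 h (adjusted p = 0.574), -0.38 ± 0.13 at 6 h (adjusted p = 0.0317) and -0.71 ± 0.13 at 12 h (adjusted p = 0.00117). Its part in the Paox values was not tested.

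Smox (ENSMUSG00000027333, chr2:131491496-131525922), the spermine oxidase that turns spermine directly into spermidine, was too low to test by the filter. It had 0.741, 0.856 and 0.748 FPKM in sham livers, 1.01, 0.829 and 0.966 at 3 h, 0.866, 0.933 and 0.889 at 6 h, and 0.625, 0.520 and 0.374 at 12 h. The 12 h libraries were the lowest. Counts were few, 26 to 64 per library over the 12 libraries. In the fit without a filter the log2 difference of 12 h from sham was -0.64 ± 0.35 (adjusted p = 0.267) and that of 12 h from 3 h was -0.91 ± 0.35 (adjusted p = 0.0538). Neither passed.

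**Figure D2:**
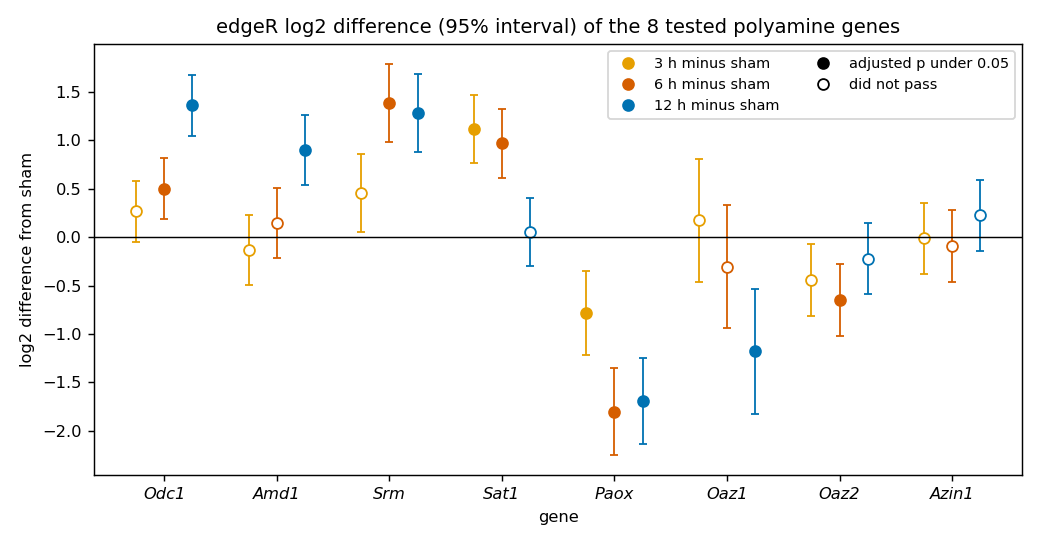
Log2 difference from sham (vertical axis) of the 8 tested polyamine genes at 3 h, 6 h and 12 h, with bars for the 95% interval of the edgeR fit over 12 libraries. Filled points passed an adjusted p of 0.05 and open points did not. Srm is highest at 6 h (1.39), Odc1 and Amd1 at 12 h (1.36 and 0.90) and Sat1 at 3 h (1.12), while Paox is lowest at 6 h (-1.80).

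The regulators of ornithine decarboxylase did not move as a block. Oaz1 (ENSMUSG00000035242, chr10:80826656-80829290) encodes the main antizyme. It had 40.9, 101 and 112 FPKM in sham livers, 107, 79.2 and 109 at 3 h, 79.1, 77.5 and 53.4 at 6 h, and 38.0, 41.4 and 33.6 at 12 h. In FPKM the 12 h libraries lay below all 3 h and 6 h libraries and below sham replicates 2 and 3, but sham replicate 1 lay among them. In unscaled counts 6 h replicate 3 (1856) also lay among the 12 h libraries (1533 to 1935). The log2 difference of 12 h from sham was -1.18 ± 0.30 (adjusted p = 0.0102), or 0.441 times the sham level. Without sham replicate 1 it was -1.52 (adjusted p = 5.05e-05), and over all alternatives the adjusted p ran from 6.94e-09 to 0.0489. At 3 h the log2 difference was 0.18 ± 0.29 (adjusted p = 0.718), and -0.16 (adjusted p = 0.596) without that library. At 6 h it was -0.31 ± 0.30 (adjusted p = 0.46), and -0.64 (adjusted p = 0.0125) without it. Over the alternatives the adjusted p ran from 0.341 to 0.972 at 3 h and from 0.0125 to 0.923 at 6 h. Against 3 h, Oaz1 fell at 12 h by 1.36 ± 0.30 on the log2 scale (adjusted p = 0.00402), a comparison that does not use the sham libraries. The difference between 12 h and 6 h, -0.88 ± 0.30 (adjusted p = 0.0467), passed narrowly and was lost in 9 of 15 alternative settings. Those were both limma fits, the replicate block (-0.88, adjusted p = 0.0693), scaling by library totals (-0.58, adjusted p = 0.187) and the omission of any 12 h library or of 6 h replicate 1 or 2, and the adjusted p ran from 2.04e-05 to 0.187. The pseudogene Oaz1-ps had 0.859 to 2.88 FPKM, and reads may be shared with it.

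Oaz2 (ENSMUSG00000040652, chr9:65668001-65690300) encodes a related antizyme, and Azin1 (ENSMUSG00000037458, chr15:38487427-38519266) the antizyme inhibitor, a relative of ornithine decarboxylase without its activity. Oaz2 had 5.81, 8.56 and 9.08 FPKM in sham livers, 6.02, 5.93 and 5.80 at 3 h, 5.38, 4.62 and 5.30 at 6 h, and 6.93, 7.40 and 5.94 at 12 h. The 6 h libraries lay below all others, and sham replicate 1 lay among the resected libraries. Oaz2 fell at 6 h, with a log2 difference from sham of -0.65 ± 0.17 (adjusted p = 0.0105). It was -0.44 ± 0.17 at 3 h (adjusted p = 0.0851) and -0.22 ± 0.17 at 12 h (adjusted p = 0.359). Without sham replicate 1 these were -0.62 (adjusted p = 0.0038) and -0.40 (adjusted p = 0.0224), so both then passed. Scaling by library totals also called the 3 h difference (-0.63, adjusted p = 0.0255). Over the alternatives the adjusted p ran from 0.0038 to 0.244 at 3 h and from 0.0221 to 0.762 at 12 h.

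Azin1 had 16.2, 11.5 and 10.1 FPKM in sham livers, 13.3, 12.0 and 13.3 at 3 h, 12.8, 9.87 and 13.6 at 6 h, and 14.5, 15.5 and 14.5 at 12 h. Each resected group overlapped the sham range, which sham replicate 1 widened at its upper end. No difference passed: log2 -0.012 ± 0.17 at 3 h (adjusted p = 0.969), -0.092 ± 0.17 at 6 h (adjusted p = 0.721) and 0.23 ± 0.17 at 12 h (adjusted p = 0.352). Without sham replicate 1 the 12 h difference was 0.44 (adjusted p = 0.0207), and over the alternatives its adjusted p ran from 0.0138 to 0.76. Sham replicate 1 was thus low for both antizymes and high for their inhibitor.

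The ratio of Oaz1 to Odc1 within a library joins these changes and is given as a description. It was 2.17, 5.80 and 7.51 in sham livers, 5.38, 3.30 and 5.65 at 3 h, 2.81, 3.44 and 2.30 at 6 h, and 0.920, 0.955 and 0.698 at 12 h. At 12 h all 3 libraries had less Oaz1 than Odc1 per length, and all 9 others had more. The ratio of Sat1 to Paox was 1.51, 1.98 and 1.99 in sham livers, 5.46, 7.54 and 8.19 at 3 h, 11.4, 11.6 and 14.7 at 6 h, and 7.22, 5.71 and 5.90 at 12 h. Every resected library lay above every sham library, with the 6 h libraries highest.

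**Figure D3:**
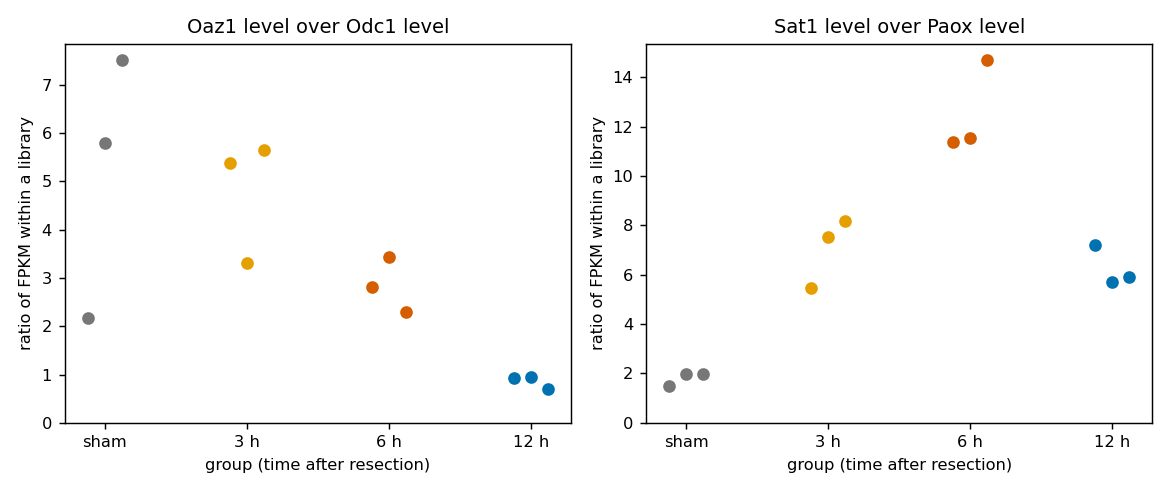
Ratio of the FPKM of Oaz1 to Odc1 (left) and of Sat1 to Paox (right) in each of the 12 libraries, by group, on linear axes from 0. The 12 h livers have Oaz1 to Odc1 ratios under 1 (0.698 to 0.955), and the Sat1 to Paox ratio is highest at 6 h (11.4 to 14.7).

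Counted over the genes, 2 of 8 were called at 3 h against sham (Sat1 higher, Paox lower), where 21.6% of all tested genes were (9.81% higher and 11.7% lower). At 6 h 5 of 8 were called, Odc1, Srm and Sat1 higher and Paox and Oaz2 lower, where 35% of all tested genes were (16.8% higher and 18.2% lower). At 12 h 5 of 8 were called, Odc1, Amd1 and Srm higher and Paox and Oaz1 lower, where 28.8% of all tested genes were (13.5% higher and 15.3% lower). Paox was thus called lower at every time, and Sat1 left the list at 12 h as Amd1 entered it. The 3 comparisons share the sham libraries. In FPKM all 3 libraries lay on the same side of all 3 sham libraries for 4 of 8 genes at 3 h, 5 of 8 at 6 h and 4 of 8 at 12 h, where 36.4%, 43.9% and 38.6% of all tested genes did. The median log2 difference of the 8 genes was 0.082 at 3 h, 0.028 at 6 h and 0.14 at 12 h, beside -0.021, -0.0089 and -0.017 over all tested genes, since genes that rose and genes that fell offset each other.

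Between times after resection, 2 of 8 genes were called for 6 h against 3 h (Srm higher, Paox lower), where 8.63% of all tested genes were (4.45% higher and 4.18% lower). For 12 h against 6 h 4 of 8 were called, Odc1 and Amd1 higher and Sat1 and Oaz1 lower, where 24.7% of all tested genes were (12.1% higher and 12.6% lower). For 12 h against 3 h 6 of 8 were called, Odc1, Amd1 and Srm higher and Sat1, Paox and Oaz1 lower, where 36% of all tested genes were (17.8% higher and 18.2% lower). Their log2 differences were 1.10 ± 0.15, 1.04 ± 0.17 and 0.83 ± 0.19 for the synthetic genes and -1.07 ± 0.16, -0.91 ± 0.21 and -1.36 ± 0.30 for Sat1, Paox and Oaz1, with adjusted p of 0.00449 or less. Oaz2 and Azin1 were in none of these calls. For 12 h against 6 h Oaz2 had 0.42 ± 0.17 (adjusted p = 0.0922) and Azin1 0.32 ± 0.17 (adjusted p = 0.197), both with the 12 h libraries above all 6 h libraries. Scaling by library totals called both (0.73, adjusted p = 0.0111 for Oaz2 and 0.62, adjusted p = 0.0094 for Azin1), the lowest over their alternatives, with 0.252 and 0.52 the highest. Both were also called without sham replicate 1 and 6 h replicate 3 (0.45, adjusted p = 0.0201 and 0.41, adjusted p = 0.0247). With only the 6 libraries compared, Oaz2 was called too (0.46, adjusted p = 0.0315). Groups that did not overlap in FPKM were found for 4 of 8 genes for 6 h against 3 h, 6 of 8 for 12 h against 6 h and 7 of 8 for 12 h against 3 h, where 34.6%, 46.8% and 55.2% of all tested genes had them.

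The genes around the pathway were counted in the same fit. Of 9 genes of ornithine and arginine supply 7 were tested, and 2 rose at 3 h, 2 at 6 h and 3 at 12 h, with 3 lower at 12 h. Over all tested genes 9.81%, 16.8% and 13.5% were called higher at 3, 6 and 12 h, and 15.3% lower at 12 h. Arg1, the liver arginase that makes ornithine, averaged 487 ± 41.2 FPKM in sham livers, 917 ± 107 at 3 h, 1314.5 ± 49.0 at 6 h and 999.6 ± 133 at 12 h (SD, n = 3 each). Its log2 differences from sham were 0.87 ± 0.14, 1.40 ± 0.14 and 1.03 ± 0.14 (SE) at 3, 6 and 12 h, all called. Asl, the lyase that releases arginine in the urea cycle, rose alongside by 1.35 ± 0.22, 1.63 ± 0.22 and 1.13 ± 0.22. Oat, which links ornithine to glutamate semialdehyde, rose at 12 h (0.90 ± 0.21). The 3 genes that fell at 12 h, named after their values were seen, were Ass1 (-0.74 ± 0.18) and Otc (-0.48 ± 0.16), both of the urea cycle, and Agmat (-0.72 ± 0.21), whose enzyme makes putrescine from agmatine.

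Of 11 genes of S-adenosylmethionine supply and methionine salvage, all tested, 4 rose and 2 fell at 3 h, 4 rose and 1 fell at 6 h, and 1 rose and 1 fell at 12 h. These are 6, 5 and 2 of 11 genes, beside 21.6%, 35% and 28.8% of all tested genes, so with all 12 libraries the 12 h share lay under that of all genes. Without sham replicate 1, 5263 of all 11451 tested genes were called at 12 h, and this list was not counted again. Mat1a, the liver enzyme that makes the substrate of Amd1, averaged 484 ± 46.4 FPKM in sham livers, 1554 ± 257 at 3 h, 2778 ± 186 at 6 h and 2409.5 ± 528 at 12 h (SD, n = 3 each). Its log2 differences from sham were 1.64 ± 0.17, 2.49 ± 0.18 and 2.30 ± 0.18 (SE), larger at each time than those of the 8 tested polyamine genes. Got1, an aspartate aminotransferase, rose at 3 h and 6 h (1.46 ± 0.19 and 1.13 ± 0.19), as did Bhmt, which remethylates homocysteine (1.06 ± 0.20 and 1.11 ± 0.20). At 12 h neither was called (-0.29 ± 0.19 and -0.050 ± 0.20). Adi1, a dioxygenase of the salvage of the methylthio group left by polyamine synthesis, fell at every time, by 0.55 ± 0.15, 1.30 ± 0.15 and 0.60 ± 0.15 at 3, 6 and 12 h. The other calls, named after their values were seen, were Ahcy higher at 3 h and 6 h (0.53 and 0.43) and Mat2b lower at 3 h (-0.62).

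Of 8 polyamine transport genes 6 were tested, and 1 rose and 1 fell at 6 h and again at 12 h. That is 2 of 6 at each time, near the 35% and 28.8% of all tested genes. Slc22a3, an organic cation transporter, averaged 0.795 ± 0.275 FPKM in sham livers, 1.25 ± 0.133 at 3 h, 1.59 ± 0.290 at 6 h and 2.53 ± 0.238 at 12 h (SD, n = 3 each), and rose at 6 h and 12 h (0.98 ± 0.24 and 1.67 ± 0.24, SE), with 0.61 ± 0.24 at 3 h (adjusted p = 0.0935). Atp13a2, a lysosomal polyamine exporter, fell at both times (-1.11 ± 0.25 and -1.21 ± 0.25). Of 4 genes of the hypusine pathway, in which spermidine modifies the translation factor eIF5A, 3 were tested. Dhps, the enzyme that uses spermidine, was the 1 of 3 that rose at 12 h (0.52 ± 0.17), where 13.5% of all tested genes did, and Eif5a itself had 0.31 ± 0.15, 0.25 ± 0.15 and 0.12 ± 0.15 at 3, 6 and 12 h with no call. Of 7 other genes 2 were tested, and 1 of them was lower at each time, where 11.7%, 18.2% and 15.3% of all tested genes were: Sat2, a relative of Sat1, fell at 3 h (-0.55 ± 0.17), and Sardh, a sarcosine dehydrogenase, fell at 6 h and 12 h (-0.53 ± 0.14 and -1.17 ± 0.14).

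**Figure D4:**
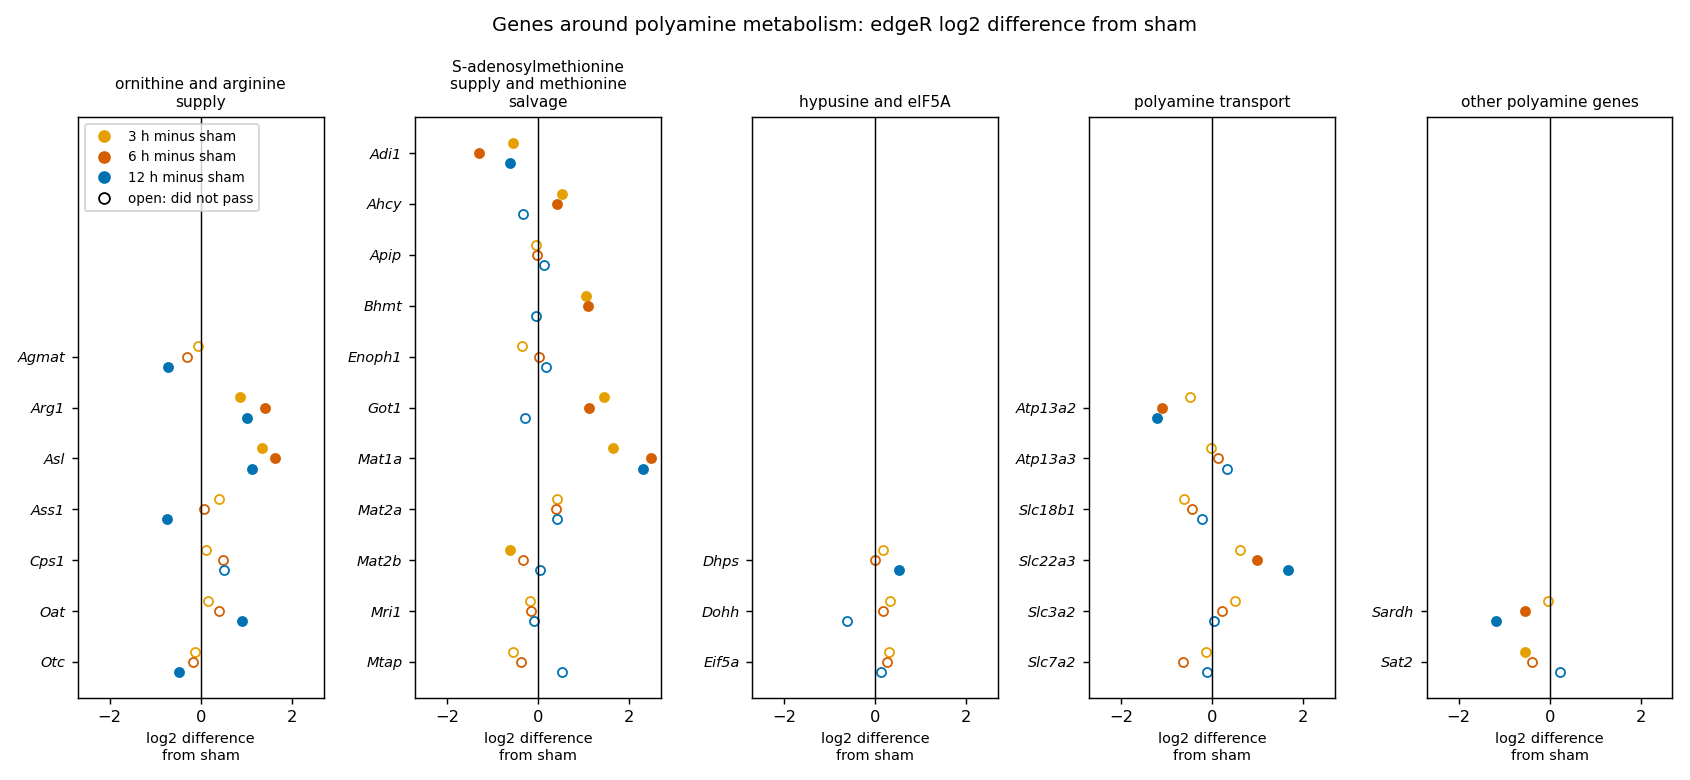
Log2 difference from sham (horizontal axis) at 3 h, 6 h and 12 h of the tested genes in 5 lists around polyamine metabolism, by edgeR over 12 libraries. Filled points passed an adjusted p of 0.05 and open points did not. Mat1a is farthest to the right (2.49 at 6 h), and Arg1 and Asl are to the right of 0 at all 3 times.

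The tested protein-coding genes whose centred log2 CPM lay closest to Odc1 over the 12 libraries were Nap1l1, Hsd17b7 and Tceal8. Their mean absolute differences were 0.141, 0.147 and 0.161, where the median gene had 0.529. Nap1l1, for example, lay between 16.3 and 18.2 FPKM at 12 h and between 5.85 and 9.19 FPKM in sham livers. Closest to Srm were Mmp14 (0.139), Slc35b1 (0.141) and Dnajb11 (0.147), with a median gene at 0.594. Closest to Sat1 were Hnf4a (0.120), Npm3 (0.134) and Smad1 (0.148), with a median gene at 0.551. Hnf4a lay between 71.5 and 103 FPKM in sham livers, between 178 and 218 at 3 h, between 159 and 166 at 6 h and between 72.1 and 86.2 at 12 h. The likeness holds over these libraries, which share their groups, and no test was made of it.

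Markers of liver cell types moved with the groups too, and their part in the results was not tested. The 9 hepatocyte markers measured (of 10 listed; Tf was not analysed here) had a summed level between 37620 and 39620 FPKM in sham livers, between 42840 and 51760 at 3 h, between 40940 and 47420 at 6 h and between 26550 and 29300 at 12 h. Their leading marker Alb was present in all libraries, as fits the labelled tissue. At 15573 to 31138 FPKM it made up most of the sum, which therefore does not describe every marker. At 12 h against sham 4 of the 9 were called lower and 1 higher, where 15.3% and 13.5% of all tested genes were. The 10 neutrophil markers, 4 of them tested, summed to between 1.76 and 2.40 FPKM in sham, between 13.6 and 15.0 at 3 h, between 9.70 and 20.5 at 6 h and between 6.78 and 8.21 at 12 h, with Ly6g at 0 in 8 of 12 libraries. The 15 markers of monocytes and macrophages summed to between 134 and 184 FPKM in sham, between 189 and 225 at 3 h, between 131 and 155 at 6 h and between 90.2 and 115 at 12 h. Of the 13 of them tested, 6 were called lower and 2 higher at 12 h against sham, beside the same shares of all genes. The 10 endothelial markers, the 10 of stellate cells and fibroblasts, the 6 of cholangiocytes and the 5 of red blood cells were all highest in a 3 h library, at up to 58.7, 61.7, 38.9 and 176 FPKM, against at most 37.2, 38.7, 21.2 and 119 FPKM in sham. Cholangiocyte sums were similar at 3 h (28.41 to 38.93) and 6 h (30.35 to 38.29). Spp1, at 15.8 to 30.0 FPKM, made up most of the cholangiocyte sum in every library, and 3 of the 6 markers were tested. In the red blood cell sum, Alas2 overlapped between sham (42.1 to 49.9 FPKM) and 3 h (40.5 to 52.4). These sums therefore do not describe every marker either. Stellate sums at 3 h started at 36.52, inside the sham range. At 12 h endothelial sums (25.56 to 31.71) and red blood cell sums (47.88 to 69.22) lay below all sham libraries. Lymphocyte markers, 9 genes, summed to at most 2.33 FPKM in any library, and 6 pancreatic acinar markers to at most 0.967 FPKM, with Prss2 at 0 in all 12.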

How the data were processed

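Poly(A) RNA of 12 liver libraries was sequenced from NEBNext Ultra preparations, per the labels' protocols. The submitters' processing notes name, with no role or order, GRCm38 and mm10 as builds and fastp, DESeq2 1.20.0, CASAVA 1.8, featureCounts 1.5.0-p3 and HISAT2 2.0.5 as tools. The authors deposited a table of raw counts per gene, and beside them the deposited FPKM, which from the values are counts over gene length and an effective library size. No column of the table lacked a sample (0 columns). All 10 positions were the same in GENCODE M21.

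The counts were tested with edgeR 4.0.16 (quasi-likelihood, TMM scaling, R 4.3.3) in a model of 4 groups over 12 libraries. The 11451 genes that reached 1 FPKM in at least 3 libraries entered, and they held at least 99.1% of every library's counts. Tests were two-sided with Benjamini-Hochberg adjustment over these genes and a threshold of 0.05. The biological coefficient of variation was 20.6%. The procedure was also run on counts simulated from the spread of this fit, with the outcome not reported here. Those counts held no outlying library such as sham replicate 1, so the run cannot vouch for the calls. Alternatives were median-ratio scaling, library totals, no filter, DESeq2 1.42.0, limma 3.58.1 on log2(FPKM + 1) and on log2(FPKM + 0.1), the replicate number as a block, only the 6 libraries compared, each library left out, and both sham replicate 1 and 6 h replicate 3 left out.

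Genes are named by rule: all 10 polyamine genes, up to 3 called genes with the largest differences of each pathway list at each time, named copies and pseudogenes, the 3 nearest profiles of Odc1, Srm and Sat1, and leading or absent cell type markers. Not every gene considered is reported here. The genes, lists and rules were chosen with earlier results of these data known.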

Additional observations from a re-analysis of the deposited data

Results flagged for a closer look

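The differences from sham of 6 polyamine genes were not equal at all times after resection, by a direct edgeR test between times (adjusted p and standard errors are given above). For 12 h against 6 h the log2 differences were 0.86 for Odc1, 0.75 for Amd1, -0.92 for Sat1 and -0.88 for Oaz1. For 12 h against 3 h they were 1.10 for Odc1, 1.04 for Amd1, 0.83 for Srm, -1.07 for Sat1, -0.91 for Paox and -1.36 for Oaz1. For 6 h against 3 h they were 0.94 for Srm and -1.02 for Paox. The comparisons with 3 h share its libraries. The Paox difference for 6 h against 3 h and the Oaz1 difference for 12 h against 6 h were lost in some of the alternatives.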

How the results depend on the processing

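Of 48 differences of the 8 tested genes 24 were called. Over all tested genes the called share lay between 8.63% and 36%, depending on which of the 6 comparisons was made. Of the 24 polyamine calls 20 held under every alternative and 4 did not. Against sham these were Odc1 at 6 h and Paox at 3 h. Between times they were Paox for 6 h against 3 h and Oaz1 for 12 h against 6 h, with values above. No such survival count is given for other genes, so 20 of 24 cannot be compared with them. No called difference changed sign (0 of 24); 668 of 720 recomputed values kept direction and side of the threshold. With each library left out in turn, the number of the 8 genes called against sham ranged between 1 and 3 at 3 h, 4 and 6 at 6 h and 5 and 7 at 12 h. It was 1 to 2 for 6 h against 3 h, 3 to 4 for 12 h against 6 h and 6 for 12 h against 3 h. Without 3 h replicate 2 or 3 it was 1 at 3 h, and without 6 h replicate 2 it was 1 for 6 h against 3 h. Of all 11451 tested genes, 1764 to 2672, 3305 to 4900 and 2112 to 5263 were then called against sham at 3, 6 and 12 h. For 6 h against 3 h, 12 h against 6 h and 12 h against 3 h these were 400 to 714, 1853 to 2274 and 2820 to 3332.

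Uncalled differences changed sign in 21 values. By library totals these were Amd1 at 6 h (-0.16), Oaz1 at 3 h (-0.022) and Srm for 12 h against 6 h (0.19). For Azin1 at 3 h they were 0.053 and 0.048 by limma with pseudocounts 0.1 and 1, 0.043 without a filter and 0.0059 with only the 6 libraries. Without sham replicate 1 and 6 h replicate 3 they were Azin1 at 3 h (0.20) and 6 h (0.027), Oaz1 at 3 h (-0.16) and Sat1 at 12 h (-0.067). Leaving out single libraries, Azin1 ranged between -0.14 and 0.20 at 3 h, between -0.22 and 0.12 at 6 h and between -0.17 and 0.046 for 6 h against 3 h, Oaz1 from -0.16 to 0.43 at 3 h, Sat1 from -0.067 to 0.16 at 12 h, Paox from -0.055 to 0.30 and Srm from -0.25 to 0.041, both for 12 h against 6 h. The cause was not tested.

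Library totals put the median log2 difference of all genes at -0.20 at 3 h, -0.32 at 6 h and -0.028 at 12 h against sham, and at -0.12, 0.26 and 0.17 for 6 h against 3 h, 12 h against 6 h and 12 h against 3 h. The share of calls that were higher became 25%, 22%, 47.7%, 29.9%, 84.8% and 69.7%, against 45.5%, 48.1%, 46.9%, 51.5%, 49% and 49.5%. All genes called at 12 h against sham numbered 3298, but 5263 without sham replicate 1, 5494 without it and 6 h replicate 3, and 2112 without 12 h replicate 3. At 3 h they were 2468, but 1532 with only the 6 libraries. For 12 h against 6 h they were 2828, but 1853 without 6 h replicate 2. For 6 h against 3 h they were 988, but 1534 by DESeq2, 1492 without a filter, 1485 with only the 6 libraries and 400 to 714 leaving out single libraries. Correlations of deviations from the group means were -0.255 to 0.173 in same-numbered libraries of different groups, over 0.1 in 4 of 18 pairs. For different-numbered libraries they were -0.27 to 0.324, over 0.1 in 10 of 36 pairs. With 3 libraries a group, these values cannot decide whether the numbers pair libraries. The replicate block lost 1 call, Oaz1 for 12 h against 6 h (-0.88), and 2195, 3746 and 2974 of all genes were called against sham at 3, 6 and 12 h. Sms and Smox rest on at most 91 and 64 counts per library, so small differences in them could not be detected at this depth.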

Other observations

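The ratio of Odc1 to Paox, a synthetic and a breakdown gene, lay between 1.63 and 2.07 in sham livers, between 2.90 and 5.35 at 3 h, between 9.06 and 9.54 at 6 h and between 12.7 and 20.7 at 12 h, so no groups overlapped. The ratio of Amd1 to Srm lay between 0.647 and 1.36 in sham livers, between 0.518 and 0.755 at 3 h, between 0.304 and 0.555 at 6 h and between 0.609 and 0.805 at 12 h. The ratio of Oaz1 to Azin1 was 2.53 in sham replicate 1, against 8.75 and 11.1 in the other sham libraries, and lay between 2.31 and 2.67 at 12 h. These ratios of FPKM within a library were chosen with the genes' values known and are given as descriptions. Among the copies, Oaz1-ps was lower at 12 h than at 3 h (log2 -1.29 ± 0.39, edgeR adjusted p = 0.0224), the same direction as Oaz1 itself, and Amd-ps6 was listed at 0 in all 12 libraries.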
